A study of Mus musculus with 30 samples.

Results

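The 43 genes described here are 27 chemokine ligands and 16 chemokine receptors of the mouse, taken by gene symbol, and all 43 were found under 1 Ensembl identifier each among the 53431 genes counted. CT-26 and Colon 26 are colon carcinoma lines from BALB/c mice, brought together by the study because tumors of these lines differ in their response to PD-1 blockade. RNA-seq covered 3 cultures of each line and, for each model, 4 tumors at each of 3 sizes (100, 400 and 800 mm3), 30 libraries in 8 groups. Female BALB/c mice, which keep their own immune cells, carried the tumors in the right flank. The age of the mice is not given. Antibody dosing appears in the treatment notes shared by all labels, but no single library is labelled with an antibody, and the tumors were taken as untreated, which was not checked. Each model is 1 cell line, Colon 26 was bought from more than 1 supplier, and the labels do not say which stock was used.

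Chemokines are small proteins that direct the movement of leukocytes along gradients by binding receptors coupled to G proteins. The CXC ligands of the ELR type (Cxcl1, Cxcl2, Cxcl3, Cxcl5) attract neutrophils through Cxcr2, and the interferon-inducible ligands Cxcl9, Cxcl10 and Cxcl11 attract activated T cells and NK cells through Cxcr3. Most CC ligands attract monocytes, macrophages, dendritic cells or T cells, and Cx3cl1 and Cxcl16 are made as membrane proteins that also tether cells. The atypical receptors Ackr2 and Ackr3 bind and remove ligands and do not signal through G proteins.

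Levels are given as CPM, estimated counts scaled to a common library total after TMM normalization over all 30 libraries, and as FPKM, which also divides by gene length, wherever genes are set against each other. A member was counted as made by the cells of a line when every culture held at least 1 CPM, as at the floor when no culture held more than 3 counts, and as a trace otherwise. A gene was called different when edgeR gave an adjusted p of at most 0.1 with a log2 fold change of 1 or more in either direction, and fold changes between models are Colon 26 over CT-26. The libraries held between 21384697 and 39722554 counts, with a median of 23995686 in the CT-26 and 39425164 in the Colon 26 cultures. The labels do not say whether replicates came from separate cultures, so the p-values measure the spread between these libraries, and any difference in handling between the CT-26 and Colon 26 cultures cannot be told apart from the line. In tumors, which are mixtures, fewer cells of a type and less RNA per cell cannot be told apart.

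Of the 27 ligands, 5 were made by cultured tumor cells of at least 1 line: Cxcl1 and Ccl9 by CT-26, and Cx3cl1, Ccl9, Ccl5 and Cxcl10 by Colon 26. Only Ccl9, a ligand of Ccr1, met the definition in both lines. Another 8 ligands in CT-26 and 8 in Colon 26 were traces, and 14 ligands were at the floor in both. Among the receptors, Ccr1 and Ackr3 were made by both lines and Ccr2 by Colon 26. These classes rest on the level of 1 CPM. With 0.5 CPM, Cxcl1 and Cxcl10 met the definition in both lines, and the receptor Cx3cr1 joined the members made. With 2 CPM Ccr2 left them, and Ccl9 no longer met the definition in CT-26. On the FPKM scale Cxcl1 led the ligands in CT-26 cells (6.81 ± 0.702, mean ± SD, n = 3), and Cx3cl1 (14.6 ± 0.696) and Ccl5 (6.40 ± 0.626) led in Colon 26 cells.

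**Figure D1:**
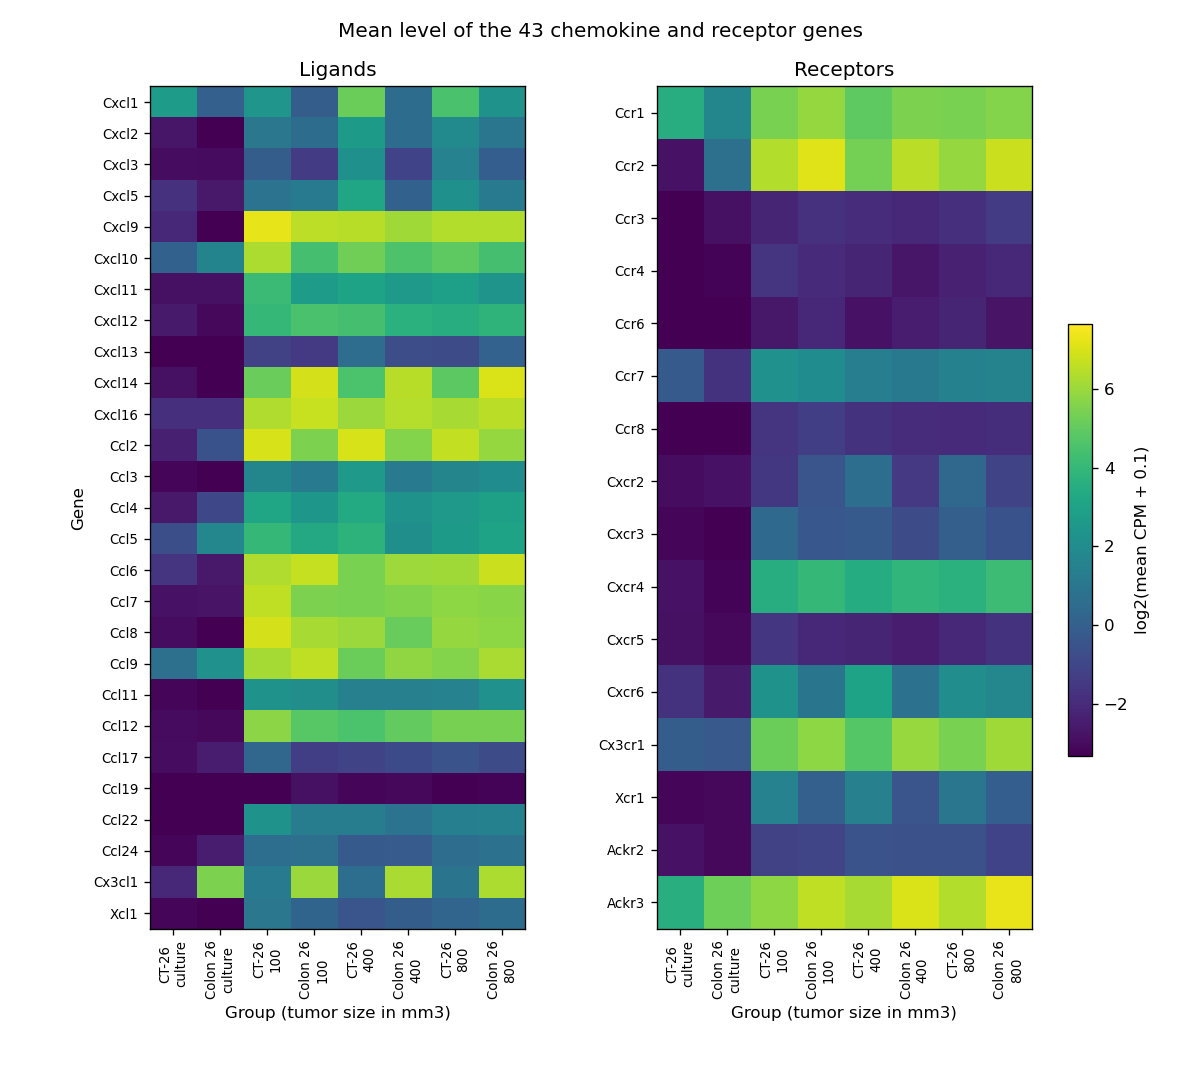
Mean level of each of the 27 ligands (left) and 16 receptors (right) in the 8 groups, as log2(mean CPM + 0.1), from dark (low) to yellow (high). Most rows are dark in both culture columns and bright in the tumor columns, and Cx3cl1 is bright in each Colon 26 column.

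Cx3cl1, also called fractalkine, is the membrane-bound ligand of Cx3cr1. It stood at 42.3, 45.1 and 46.7 CPM in the 3 Colon 26 cultures. The 3 CT-26 cultures held 0.140, 0.0371 and 0.2504 CPM. The Colon 26 cultures thus lay far above the CT-26 cultures, with a log2 fold change of 8.35 ± 0.15 (SE, adjusted p = 7.32e-17). Its gene lies on chromosome 8 between those of Ccl22 and Ccl17, ligands of Ccr4 attractive to T cells, and these neighbors were not made by either line, with at most 4 counts in any culture.

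Cxcl1 went the other way, with 7.08, 5.98 and 6.59 CPM in CT-26 cultures. Colon 26 cultures held 0.893, 0.770 and 1.10 CPM. The groups were well apart, and the log2 fold change was -2.77 ± 0.16 (SE, adjusted p = 1.60e-10). The other ELR ligands, whose genes sit beside Cxcl1 on chromosome 5, were at the floor (Cxcl2, Cxcl3) or traces (Cxcl5) in both lines.

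Ccl5, a ligand made by activated T cells among others, stood at 3.06, 3.13 and 3.66 CPM in Colon 26 cultures and at 0.512, 0.408 and 0.626 CPM in CT-26 cultures. Cxcl10 stood at 2.60, 3.25 and 3.12 CPM in Colon 26 against 0.698, 1.26 and 0.918 CPM in CT-26. Ccl9 stood at 4.87, 5.13 and 3.59 CPM against 1.91, 1.30 and 1.502 CPM, in the same order. For these ligands every Colon 26 culture exceeded every CT-26 culture, with log2 fold changes of 2.73 ± 0.21 (SE, adjusted p = 6.24e-09) for Ccl5, 1.67 ± 0.21 (SE, adjusted p = 1.77e-06) for Cxcl10 and 1.59 ± 0.19 (SE, adjusted p = 8.27e-07) for Ccl9. Ccl2, the main attractant of monocytes, was a trace in both lines, at 0.568, 0.481 and 0.683 CPM in Colon 26 and 0.0466, 0.0743 and 0.167 CPM in CT-26 cultures, and was also called (log2 fold change 2.58 ± 0.46, adjusted p = 8.05e-05). The Ccl2 call was lost when all 30 libraries entered one fit.

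Among the receptors, Ackr3, a scavenger of Cxcl12, stood at 37.0, 36.4 and 38.7 CPM in Colon 26 and 11.03, 12.8 and 12.2 CPM in CT-26 cultures (log2 fold change 1.68 ± 0.06, adjusted p = 9.38e-14). Ccr1, a receptor of myeloid cells, was higher in CT-26, at 11.5, 11.9 and 10.9 against 3.52, 2.89 and 3.22 CPM (-1.79 ± 0.10, adjusted p = 4.20e-11). Ccr2, the receptor of Ccl2, stood at 1.87, 1.25 and 1.56 CPM in Colon 26 cultures and at the floor in CT-26, where no culture held more than 2 counts, at least 12.4-fold higher in Colon 26. Ccr7, the lymph node homing receptor, was low in both lines and was called lower in Colon 26, at 0.244, 0.193 and 0.171 against 1.117, 0.446 and 0.751 CPM (-1.84 ± 0.39, adjusted p = 4.82e-04). Cx3cr1, the receptor of Cx3cl1, was a trace of 0.709 to 0.965 and 0.541 to 0.903 CPM and was not called.

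In all, 11 of the 43 members passed the filter on low counts in the cultures, and 10 were called, 7 higher and 3 lower in Colon 26. Over all genes tested 22.9% were called in this comparison (10.6% higher, 12.3% lower). A member that passed the filter only through the line where it was high had to differ, so the share of members called is no measure of the list. Ptprc, the pan-leukocyte gene, stood at 0.0931 to 0.209 CPM in CT-26 compared with 0 to 0.0732 CPM in Colon 26. Of the 7 T cell markers 6 were at the floor in CT-26 and 7 in Colon 26. Of the 8 macrophage and monocyte markers 6 were tested, with 4 lower and 1 higher in Colon 26. Cd68 stood at 59.2 to 66.4 CPM in CT-26 against 3.22 to 4.21 CPM in Colon 26, and C1qa at 0.326 to 0.668 against 0.0241 to 0.0271 CPM, while Adgre1 was at the floor in both. Ly6c2 was higher in Colon 26, at 0.337 to 0.487 against 0.0931 to 0.376 CPM, and Mrc1 was not called, at 0.439 to 0.676 against 0.334 to 0.419 CPM. The part of these genes in the Ccr1 difference was not tested.

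**Figure D2:**
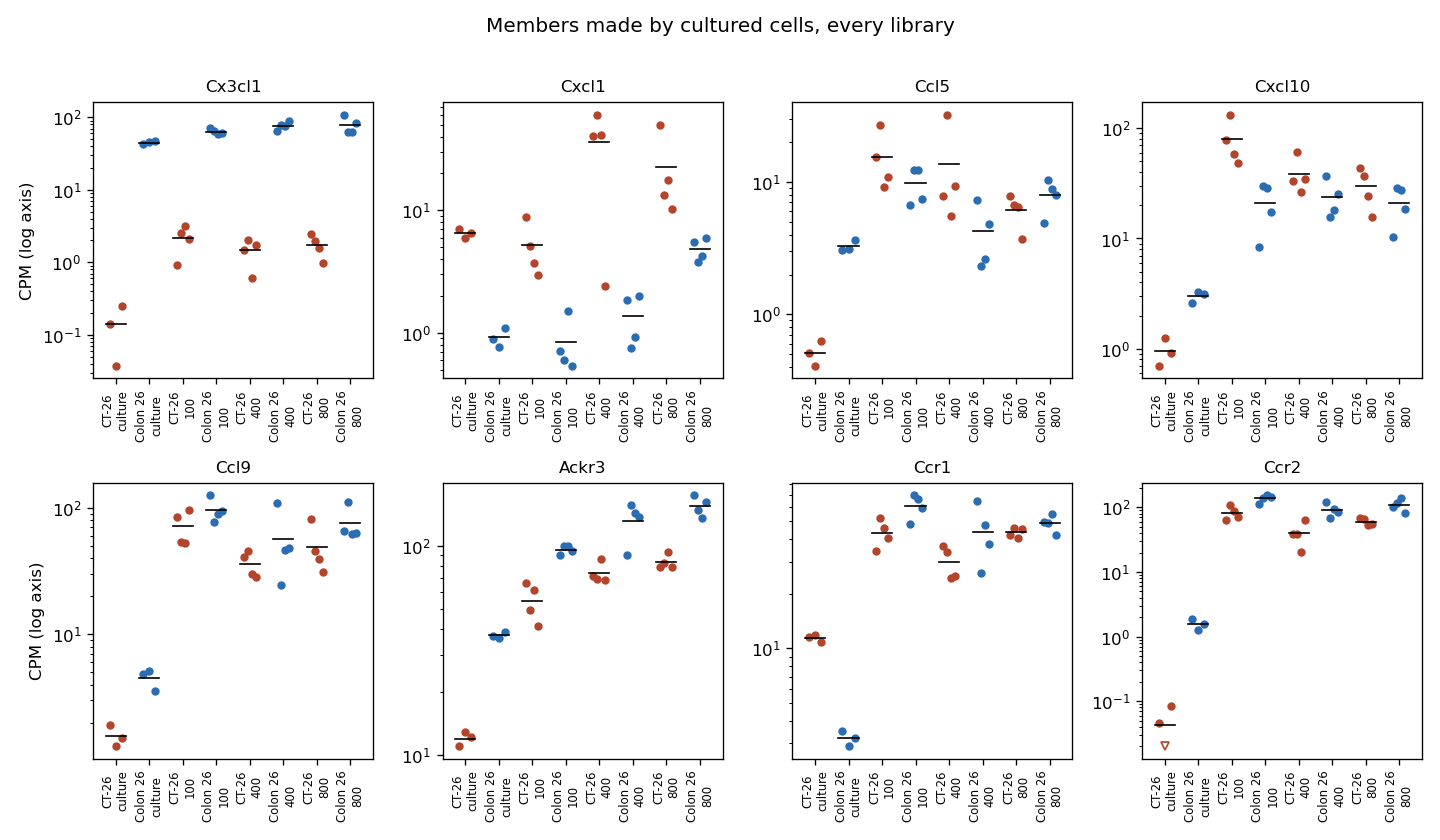
CPM (log axis) of the 8 members made by cultured cells of at least 1 line, in each of the 30 libraries (points, red for CT-26 and blue for Colon 26), with the group mean as a bar and an open triangle for the 1 culture without a count of Ccr2. Cx3cl1 and Cxcl1 keep their order between the models from culture to tumor, whereas Ccl5 and Cxcl10 do not.

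The sequences before the start sites of the ligands called between the cultures are shown because the difference between the lines was already present without a host. RefSeq promoters (build GRCm38.p6, the C57BL/6J reference and not the BALB/c genome of these cells) were at hand for 32 of the 43 members, 18 of them ligands. Of the 6 ligands called, those with a RefSeq entry are given as the 250 bases before the start, 5′ to 3′ on the gene's strand. Capitals mark matches to the kappa-B consensus, bound by NF-kappa-B, or to TTTC followed after any 2 bases by TTTC, a core of the interferon-stimulated response element, both searched on either strand. Ccl5 and Ccl2 are named only.
Cx3cl1 (chr8:94771930-94772179, plus strand): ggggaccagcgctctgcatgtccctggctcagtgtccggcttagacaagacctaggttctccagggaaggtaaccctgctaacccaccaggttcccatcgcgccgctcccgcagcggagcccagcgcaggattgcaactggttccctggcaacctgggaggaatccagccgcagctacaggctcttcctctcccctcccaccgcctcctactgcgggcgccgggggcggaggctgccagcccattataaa
Cxcl1 (chr5:90890995-90891244, plus strand): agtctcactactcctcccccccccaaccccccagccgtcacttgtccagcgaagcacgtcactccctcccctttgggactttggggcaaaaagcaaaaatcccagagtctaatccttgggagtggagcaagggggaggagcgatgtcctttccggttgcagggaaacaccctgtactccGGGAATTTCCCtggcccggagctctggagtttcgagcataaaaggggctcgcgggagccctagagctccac
Cxcl10 (chr5:92348890-92349139, minus strand): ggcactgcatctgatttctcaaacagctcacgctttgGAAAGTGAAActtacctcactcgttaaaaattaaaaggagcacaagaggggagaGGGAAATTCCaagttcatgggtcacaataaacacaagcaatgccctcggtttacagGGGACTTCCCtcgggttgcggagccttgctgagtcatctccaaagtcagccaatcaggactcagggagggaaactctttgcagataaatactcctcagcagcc
Ccl9 (chr11:83578637-83578886, minus strand): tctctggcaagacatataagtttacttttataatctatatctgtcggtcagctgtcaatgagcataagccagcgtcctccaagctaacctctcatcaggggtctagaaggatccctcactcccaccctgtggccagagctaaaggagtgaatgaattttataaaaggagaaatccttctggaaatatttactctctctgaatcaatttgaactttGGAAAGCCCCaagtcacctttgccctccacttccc

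In windows of 300 bases (250 before and 50 after the start), the kappa-B consensus was found in 8 of the 32 members and in 4.51% of all 32851 promoters, and the paired TTTC in 3 members and 3.44% of all promoters. Cxcl10 held both. No match was found in the Cx3cl1 window, which says only that these letters are absent there. The kappa-B matches of Cxcl1, Cxcl2 and Cxcl3 began 71, 97 and 73 bases before the start and are shown in 40 bases each, since these neighboring genes were high together in several CT-26 tumors described later. Each of the 3 stretches holds 2 overlapping matches.
Cxcl1 (chr5:90891159-90891198, plus strand): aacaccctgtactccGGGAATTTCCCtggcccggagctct
Cxcl2 (chr5:90903787-90903826, plus strand): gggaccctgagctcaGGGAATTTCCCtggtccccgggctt
Cxcl3 (chr5:90786013-90786052, plus strand): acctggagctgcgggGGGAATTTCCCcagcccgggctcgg

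Members that appeared only in tumors, with no more than 3 counts in any culture of either line and at least 1 CPM in every tumor of a model, numbered 8: the ligands Cxcl11, Cxcl12, Cxcl14, Ccl3, Ccl7, Ccl8 and Ccl12, and the receptor Cxcr4. Of the 23 members with at least 1 CPM in every tumor of a model these are 8. Among all genes, 12811 met that level in tumors and 403 of them (3.15%) were at the floor in culture. Ccl8, a monocyte attractant, spanned 50.5 to 179 CPM in CT-26 compared with 69.6 to 85.1 CPM in Colon 26 tumors of 100 mm3 and was at least 979-fold and 983-fold above the floor of 3 counts per culture. Ccl7, a Ccr2 ligand, was at least 775-fold and 582-fold higher than in culture. Ccl12, a mouse relative of Ccl2, was at least 421-fold and 371-fold higher.

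Cxcl12, the stromal ligand of Cxcr4, was at least 126-fold (CT-26) and 298-fold (Colon 26) above its culture floor at 100 mm3, and Cxcr4 itself at least 89.96-fold and 205-fold. Cxcl14, a ligand of epithelia and fibroblasts, was at least 284-fold and 1635-fold higher. With a level of 0.5 CPM in place of 1 CPM, Cxcl2 and Ccl11 joined the members seen only in tumors, and with 2 CPM Ccl3 left. A further 15 members were at the floor in both lines without reaching 1 CPM in every tumor of a model, among them Ccl22, Xcl1, Xcr1 and Cxcr3.

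**Figure D3:**
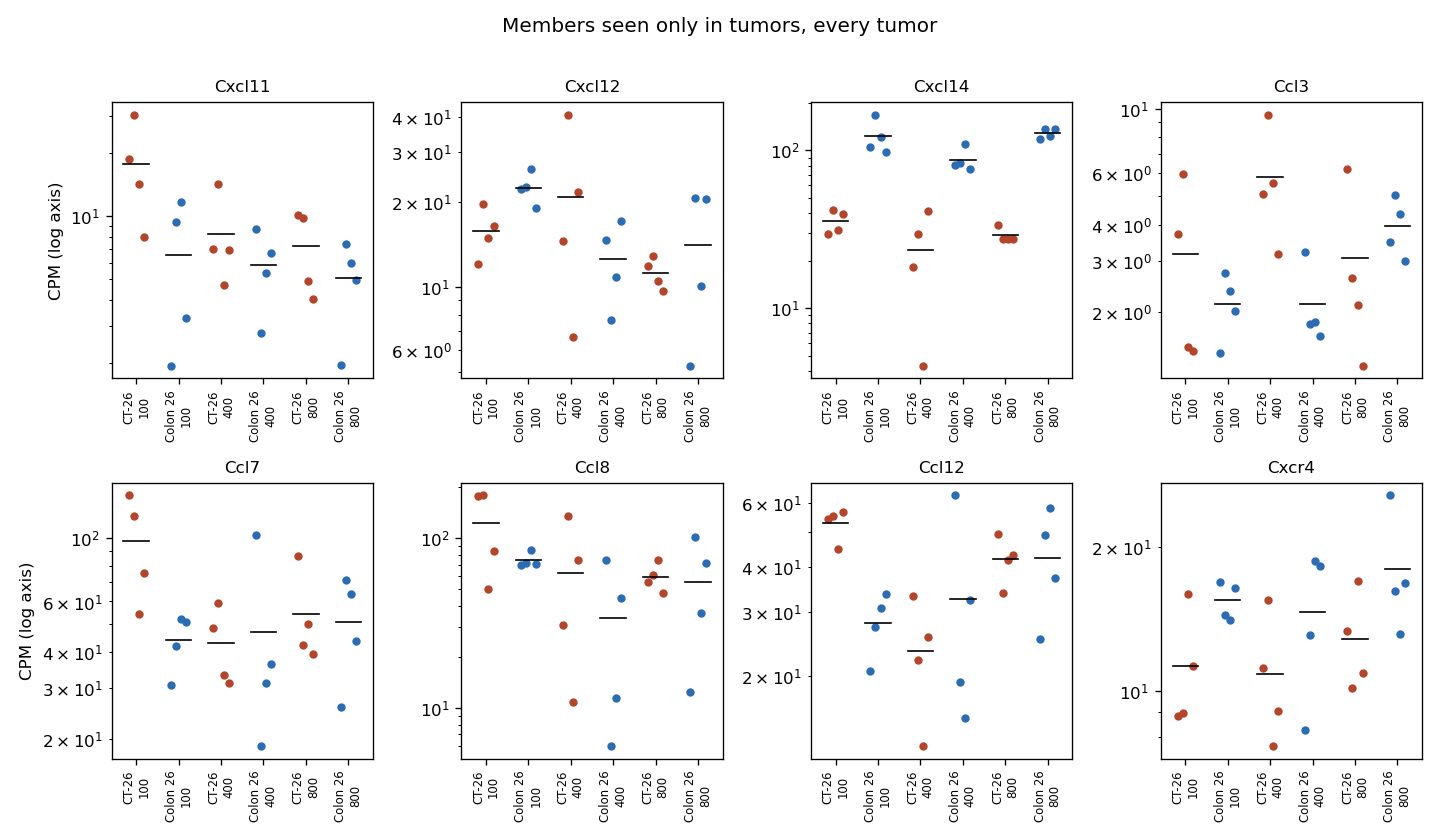
CPM (log axis) in each of the 24 tumors for the 8 members seen only in tumors, by model (red CT-26, blue Colon 26) and size in mm3, with the group mean as a bar. The Colon 26 points of Cxcl14 lie above the CT-26 points at each size.

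By FPKM the CT-26 tumors of 100 mm3 were led by ligands that attract monocytes, and the Colon 26 tumors by Ccl8. In CT-26 tumors of 100 mm3 Ccl8 stood at 237 ± 123, Ccl2 at 152 ± 64.4, Ccl7 at 119.8 ± 45.8 and Ccl12 at 97.6 ± 9.96 FPKM (mean ± SD, n = 4). In Colon 26 tumors of that size Ccl8 (148 ± 13.4 FPKM) was followed by Ccl6 (73.3 ± 19.2), Cxcl14 (69.0 ± 17.3), Ccl7 (56.0 ± 12.5) and Ccl2 (55.6 ± 11.6). Within Colon 26 the SDs of Ccl6, Cxcl14, Ccl7 and Ccl2 overlapped. Within CT-26 those of Ccl8, Ccl2 and Ccl7 overlapped, as did those of Ccl2, Ccl7 and Ccl12, but not those of Ccl8 and Ccl12. The genes were measured in the same tumors, and the order of these ligands was not tested. None of these ligands was made by cultured cells.

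Against their own cultures, tumors of 100 mm3 had 33 of 34 tested members higher in CT-26 and 32 of 34 in Colon 26, and none lower. Of all genes tested, 32.2% were called in CT-26 (22.2% higher, 10.1% lower) and 26.9% in Colon 26 (20.8% higher, 6.11% lower). Most members passed the filter through the tumors alone, so these counts are a description. The median log2 fold change of the tested members was 5.25 in CT-26 and 4.69 in Colon 26 with the 19 and 16 members at the floor in culture set to their lower bound, and the median over all genes was 0.06 and 0.05. In CT-26 the member not called was Cxcl1, at 8.90, 5.13, 3.74 and 2.99 CPM in the 4 tumors against 5.98 to 7.08 CPM in culture (log2 fold change -0.34 ± 0.34, adjusted p = 0.398). In Colon 26 they were Cxcl1 (-0.14 ± 0.36, adjusted p = 0.731) and Cx3cl1, whose change of 0.51 ± 0.07 (SE, adjusted p = 1.82e-04) was under the fold threshold. Ccl5, the other leading ligand of Colon 26 cells, was called higher in these tumors (1.57 ± 0.24, adjusted p = 3.03e-04).

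Macrophage markers moved with this difference: the summed level of the 8 markers was 61.7 to 68.8 CPM in CT-26 compared with 4.15 to 5.28 CPM in Colon 26 cultures, and 1384 to 2037 and 1597 to 1987 CPM in tumors of 100 mm3, with 7 and 8 of 8 called higher. T cell markers (7 of 7 higher in both models), NK cell markers (4 of 4 tested) and endothelial markers (5 of 5) also moved. Their part in the members' difference was not tested.

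Between the models, 11 of 36 members tested were called at 100 mm3 (3 higher and 8 lower in Colon 26), where 13.2% of all genes were called (6.17% higher, 7.06% lower). At 400 mm3 14 of 37 were called (3 higher, 11 lower), against 14.3% of all genes (6.48% higher, 7.79% lower). At 800 mm3 6 of 37 were called (3 higher, 3 lower), against 14.1% of all genes (6.5% higher, 7.62% lower). The share at 800 mm3, 16.2%, was near that of all genes. With limma on log2(FPKM + 1) the counts were 7 at 100 mm3 and 3 at 800 mm3. Cx3cl1 and Cxcl14 were called higher and Cxcl1 lower in Colon 26 at all 3 sizes.

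Cx3cl1 stood at 70.9, 65.4, 58.3 and 59.8 CPM in Colon 26 tumors of 100 mm3 and at 0.928, 2.55, 3.16 and 2.13 CPM in CT-26 tumors. At 400 mm3 the values were 64.9, 77.9, 75.3 and 88.0 CPM against 1.46, 2.01, 0.614 and 1.75 CPM, in the same order. At 800 mm3 they were 108, 62.5, 63.6 and 83.3 CPM against 2.46, 1.97, 1.55 and 0.966 CPM. Every Colon 26 tumor lay above every CT-26 tumor, with log2 fold changes of 4.84 ± 0.27 (SE, adjusted p = 3.29e-06), 5.71 ± 0.28 (SE, adjusted p = 3.56e-06) and 5.52 ± 0.27 (SE, adjusted p = 2.94e-07). Its receptor Cx3cr1, found on monocytes and macrophages, was not called at any size, with 4.41 to 63.5 CPM in CT-26 compared with 57.8 to 65.1 CPM in Colon 26 tumors of 400 mm3. Without replicate 4 of the CT-26 tumors of 400 mm3, the highest of its group, Cx3cr1 was called higher in Colon 26 (log2 fold change 2.03, adjusted p = 0.0109). With all tumors kept, it was also called higher at that size in the fit on all 30 libraries (1.18, adjusted p = 0.0454). The same held with limma on log2(FPKM + 1) (1.53, adjusted p = 0.0542) and log2(FPKM + 0.1) (1.78, adjusted p = 0.0612).

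Cxcl14 was not made in culture and stood at 106, 168, 122 and 98.3 CPM in Colon 26 tumors of 100 mm3 against 29.5, 41.7, 31.5 and 39.5 CPM in CT-26. At 400 mm3 it stood at 81.2, 82.8, 109 and 76.2 CPM in Colon 26 against 18.2, 29.4, 4.30 and 41.2 CPM. At 800 mm3 it stood at 119, 137, 123 and 136 CPM in Colon 26 against 33.6, 27.4, 27.6 and 27.4 CPM. The models did not overlap at any size, and the log2 fold changes were 1.79 ± 0.19 (SE, adjusted p = 8.17e-05), 1.91 ± 0.52 (SE, adjusted p = 0.0156) and 2.15 ± 0.09 (SE, adjusted p = 1.06e-07). Fibroblast markers were called in both directions between the models, 3 of 6 higher and 1 lower at 100 and at 400 mm3 and 2 higher and 1 lower at 800 mm3, and their summed level was 1386 to 2350.3 CPM in CT-26 compared with 2660.1 to 3380.3 CPM in Colon 26 tumors of 100 mm3. Their part in the Cxcl14 difference was not tested. Cxcl12, also a stromal ligand, differed by 0.50 ± 0.15 (SE, adjusted p = 0.0244) at 100 mm3, under the fold threshold.

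**Figure D4:**
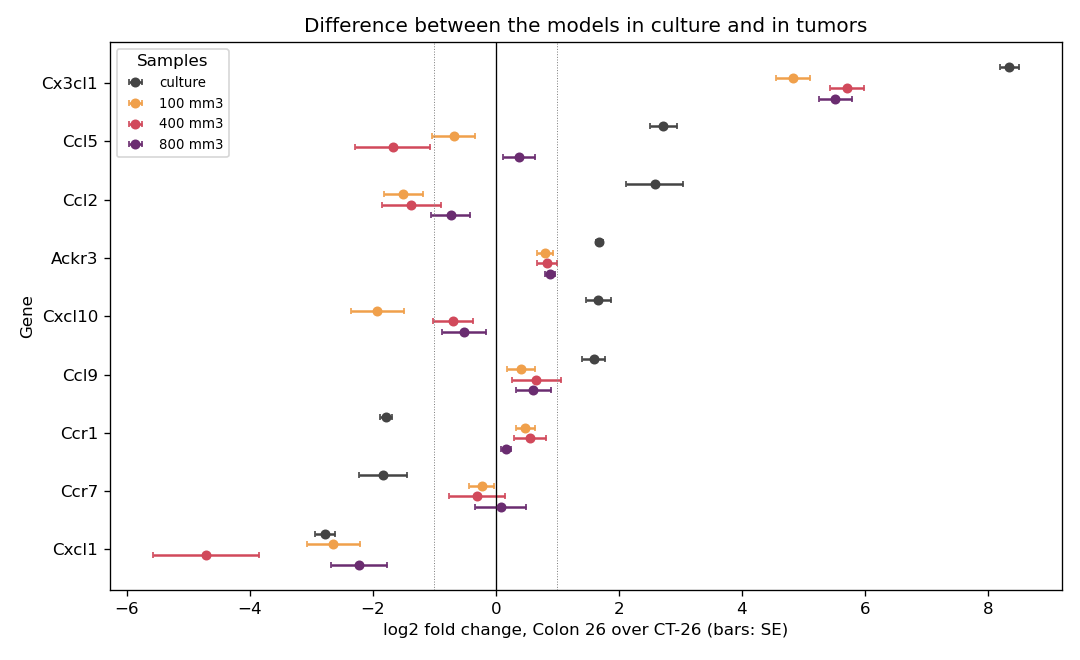
Log2 fold change of Colon 26 over CT-26 (points, bars are SE) for 9 members called between the cultures, in culture and in tumors of 3 sizes, with dotted lines at the threshold of 1. Cx3cl1 stays right of 0 and Cxcl1 left of 0 throughout, while Cxcl10 and Ccl2 lie right of 0 in culture and left of 0 in tumors.

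Of the 4 ELR ligands, 2 were called lower in Colon 26 tumors of 100 mm3, 4 at 400 mm3 and 1 at 800 mm3. At 100 mm3 Cxcl1 stood at 8.90, 5.13, 3.74 and 2.99 CPM in CT-26 compared with 0.711, 0.605, 1.498 and 0.537 CPM in Colon 26 tumors. At 400 mm3 it stood at 40.5, 60.1, 41.6 and 2.39 CPM in CT-26 against 1.85, 0.758, 0.923 and 1.99 CPM. At 800 mm3 it stood at 49.5, 13.3, 17.6 and 10.3 CPM in CT-26 against 5.52, 3.76, 4.23 and 5.90 CPM. The models did not overlap at any size, although replicate 4 of the CT-26 tumors of 400 mm3 came close to Colon 26, and the log2 fold changes were -2.64 ± 0.44 (SE, adjusted p = 0.00107), -4.71 ± 0.86 (SE, adjusted p = 0.00216) and -2.23 ± 0.46 (SE, adjusted p = 0.00232).

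Cxcl2 at 400 mm3 stood at 4.89, 8.46, 11.1 and 0.0855 CPM in CT-26 compared with 2.90, 0.569, 0.769 and 1.19 CPM in Colon 26. Cxcl3 stood at 4.26, 3.75, 9.48 and 0.0855 CPM in CT-26 against 1.11, 0, 0.123 and 0.217 CPM. Cxcl5, a ligand of the same receptor, stood at 8.67, 16.6, 6.83 and 2.48 CPM in CT-26 against 1.85, 0.227, 0.400 and 1.41 CPM. CT-26 replicates 1 to 3 were above all Colon 26 tumors for each gene. Replicate 4 was the lowest of its group, and it lay under all Colon 26 tumors for Cxcl2 and under all but 1, without a count, for Cxcl3. The log2 fold changes were -2.18 ± 0.97 (SE, adjusted p = 0.0991), -3.58 ± 1.22 (SE, adjusted p = 0.04) and -3.15 ± 0.73 (SE, adjusted p = 0.00756). The Cxcl2 call did not hold with DESeq2 (adjusted p = 0.111) nor without any 1 of 6 of the 8 tumors, and that of Cxcl3 was lost without replicate 4 of the Colon 26 tumors (adjusted p = 0.101).

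Cxcr2, their receptor, had 1.42, 2.83, 1.23 and 0.428 CPM in CT-26 compared with 0.438, 0.0758, 0.0615 and 0.434 CPM in Colon 26 tumors of 400 mm3 (log2 fold change -2.54 ± 0.72, adjusted p = 0.0185). With limma on log2(FPKM + 1) that call was lost (-0.42). At 100 mm3 Cxcr2 was higher in Colon 26, at 0.452, 0.467, 0.712 and 0.949 against 0.253, 0.261, 0.234 and 0.240 CPM, without overlap (1.34 ± 0.31, adjusted p = 0.00685). The call at 100 mm3 was lost in the fit on all 30 libraries (1.35, adjusted p = 0.109). It was also lost with limma on log2(FPKM + 1) (0.17) and log2(FPKM + 0.1) (0.78). At 800 mm3 Cxcr2 stood at 3.25, 0.470, 0.371 and 0.686 CPM in CT-26 compared with 0.351, 0.448, 0.298 and 0.406 CPM in Colon 26 (-1.63 ± 0.68, adjusted p = 0.0663). That difference rested on replicate 1 of CT-26, which was far above the others, and without it the log2 fold change was -0.43 (adjusted p = 0.295). The call was also lost without any 1 of the 4 Colon 26 tumors (adjusted p = 0.105 to 0.135). Cxcl3 was also called at 100 mm3, at 2.03, 0.392, 0.507 and 0.446 CPM in CT-26 against 0.420, 0.192, 0.300 and 0.206 CPM in Colon 26, with overlap (-1.55 ± 0.61, adjusted p = 0.0606), and without replicate 1 of CT-26 it was not (-0.66, adjusted p = 0.147), nor without replicate 2, 3 or 4 of Colon 26 (adjusted p = 0.142, 0.112 and 0.13). At 800 mm3 Cxcl3 was called only without replicate 4 of CT-26 (-1.97, adjusted p = 0.0915) or replicate 2 of Colon 26 (-2.60, adjusted p = 0.0516), and at 100 mm3 Cxcl5 was called higher in Colon 26 without replicate 2 of CT-26 (1.02, adjusted p = 0.0843).

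At 400 mm3 the neutrophil markers tested were lower in Colon 26, as were the ELR ligands and Cxcr2. S100a9 stood at 17.7, 20.1, 31.9 and 2.39 CPM in CT-26 tumors of 400 mm3, low in replicate 4 like the ELR ligands, and at 38.5, 6.96, 3.57 and 5.95 CPM at 800 mm3, high in replicate 1. Of the neutrophil markers tested, 0 of 4 were called between the models at 100 mm3, 3 of 3 lower in Colon 26 at 400 mm3 and 3 of 4 at 800 mm3. The 5 markers summed to 15.4 to 54.8 CPM in CT-26 compared with 3.49 to 11.9 CPM in Colon 26 tumors of 400 mm3. Ly6g, which defines neutrophils in the mouse, was at or under 0.0623 CPM in every tumor. The part of neutrophils in the ligand and Cxcr2 differences was not tested.

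**Figure D5:**
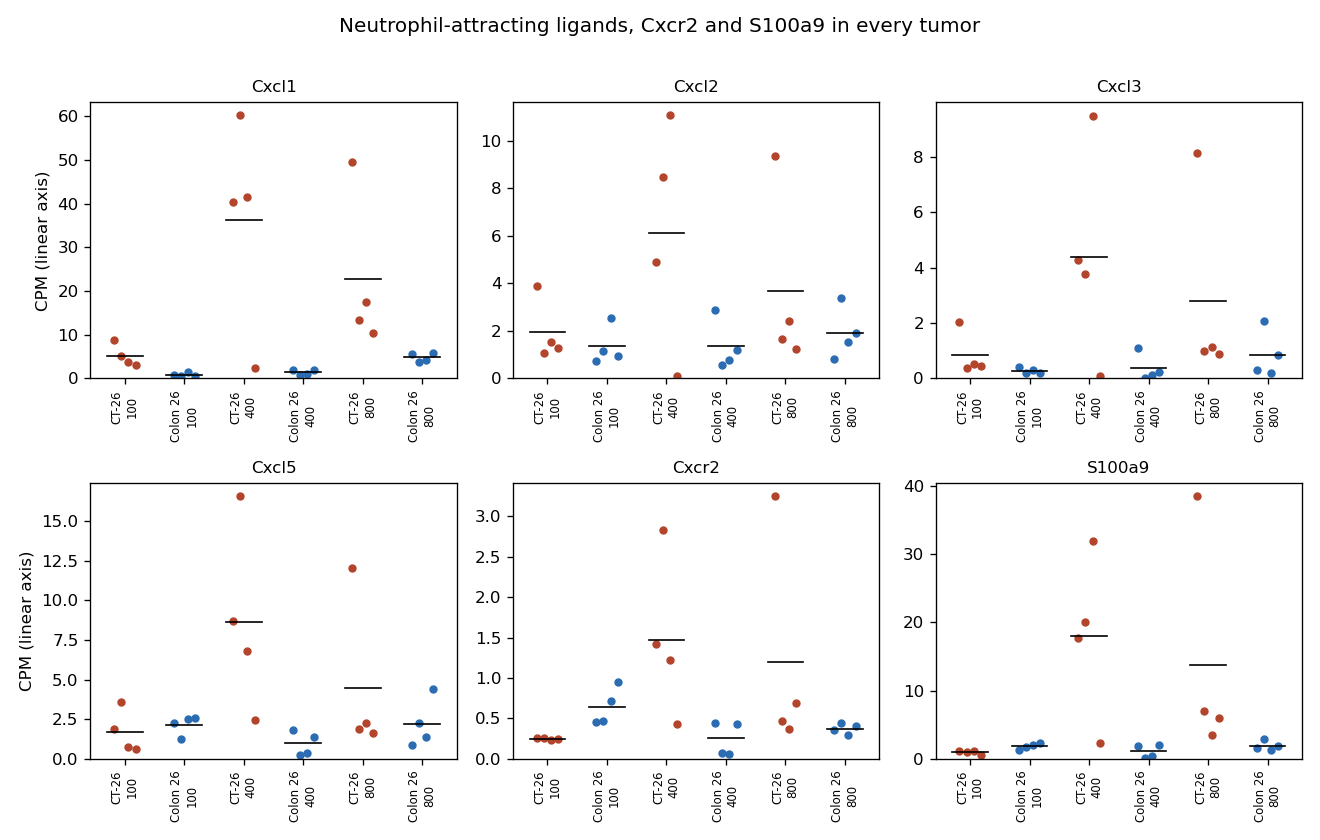
CPM (linear axis) of the 4 ELR ligands, their receptor Cxcr2 and the neutrophil marker S100a9 in each of the 24 tumors, by model (red CT-26, blue Colon 26) and size in mm3, with the group mean as a bar. Replicates 1 to 3 of CT-26 at 400 mm3 and replicate 1 at 800 mm3 stand high for each gene, and replicate 4 at 400 mm3 stands low.

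Cxcl10 was lower in Colon 26 tumors of 100 mm3, at 8.43, 29.7, 28.4 and 17.5 CPM against 77.9, 132, 58.7 and 48.5 CPM in CT-26, without overlap (log2 fold change -1.92 ± 0.43, adjusted p = 0.00549). Cxcl11, whose gene lies beside it, stood at 1.94, 9.35, 11.7 and 3.26 in Colon 26 against 18.6, 30.3, 14.2 and 7.96 CPM, with overlap (-1.44 ± 0.58, adjusted p = 0.0679), a call lost without any 1 of 4 tumors. Cxcl9, the third ligand of Cxcr3, was high and variable in both models, with 67.4 to 292 and 12.3 to 169.6 CPM, and was not called (-0.68, adjusted p = 0.471). At 400 and 800 mm3 none of the 3 was called. Cxcl10 and Cxcl11 share exon sequence with genes on the other strand, as do the members Cxcl16, Xcl1, Cxcr5 and Cx3cr1. The handling of strand is not given in the sources used here.

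Of 8 tested inducers and regulators of chemokine genes, 1 was called lower in Colon 26 at 100 mm3 and 2 at 400 mm3, and none higher at either size. Irf1, an interferon response factor, was lower at 100 mm3 (-1.13, adjusted p = 0.0588). Ifng, which encodes interferon gamma, was lower at 400 mm3 (-1.61, adjusted p = 0.0493), as was the cytokine Il1b (-1.62, adjusted p = 0.025). At 800 mm3 edgeR called 0 of 8, with 5 at an unadjusted p under 0.05. NK cell markers were lower in Colon 26 at each size (3, 4 and 3 of 4) and T cell markers at 400 mm3 (6 of 7) but not at the other sizes (0 of 7). The NK list summed to 12.4 to 53.0 CPM in CT-26 compared with 3.59 to 17.0 CPM in Colon 26 tumors of 100 mm3, with Klra8 at the floor, and the part of these cells was not tested.

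Among the CC ligands, Ccl2 stood at 177, 166, 65.5 and 90.7 CPM in CT-26 compared with 31.8, 44.8, 46.9 and 53.8 CPM in Colon 26 tumors of 100 mm3. At 400 mm3 it stood at 135, 199.8, 111 and 58.0 CPM in CT-26 against 90.8, 20.5, 37.8 and 45.2 CPM. The models were apart at 100 mm3 and overlapped at 400 mm3, with log2 fold changes of -1.504 ± 0.32 (SE, adjusted p = 0.00394) and -1.38 ± 0.48 (SE, adjusted p = 0.0439). The latter was lost without replicate 2 of CT-26 (adjusted p = 0.118) or replicate 3 of Colon 26 (0.107), and at 800 mm3 Ccl2 missed the fold threshold (-0.73 ± 0.32, adjusted p = 0.0762). Ccl7 was called at 100 mm3 and at no other size, at 30.7, 41.9, 52.3 and 51.0 in Colon 26 against 140.2, 119, 54.4 and 75.4 CPM (-1.15 ± 0.29, adjusted p = 0.0103), and fell under the fold threshold without replicate 1 of CT-26 (-0.91).

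The macrophage inflammatory ligands Ccl3, Ccl4 and Ccl5, which bind receptors of T cells and myeloid cells, were called lower in Colon 26 at 400 mm3. Ccl3 stood at 3.23, 1.82, 1.85 and 1.66 CPM in Colon 26 against 5.09, 9.51, 5.56 and 3.16 CPM (-1.45 ± 0.36, adjusted p = 0.0101). Ccl4 stood at 6.23, 4.06, 4.18 and 4.99 CPM in Colon 26 against 9.23, 19.2, 6.79 and 6.07 CPM (-1.09 ± 0.36, adjusted p = 0.0375). Ccl5 stood at 7.34, 2.31, 2.62 and 4.84 CPM in Colon 26 against 7.89, 32.0, 5.53 and 9.32 CPM (-1.68 ± 0.61, adjusted p = 0.0501). The models overlapped for each of them. CT-26 replicate 2 was the highest throughout, and without it Ccl4 (-0.60, adjusted p = 0.0616) and Ccl5 (-0.82, adjusted p = 0.153) were not called. Ccl5 was also lost without replicate 2 or 3 of Colon 26 (adjusted p = 0.119 and 0.12).

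Ligands of type 2 responses were called at 100 mm3. Ccl17 stood at 0.194, 0.247, 0.187 and 0.619 CPM in Colon 26 against 1.06, 0.490, 0.858 and 2.06 CPM in CT-26 (-1.87 ± 0.54, adjusted p = 0.0176), with overlap and at low levels. Ccl22, a ligand of the same receptor, stood at 2.75, 1.26, 2.10 and 3.18 in Colon 26 against 5.74, 3.40, 3.98 and 6.25 CPM, without overlap (-1.07 ± 0.31, adjusted p = 0.0177), and fell under the fold threshold without any 1 of 3 tumors (-0.97 to -0.84). The eosinophil attractants Ccl11 and Ccl24 were not called at any size, and no eosinophil marker passed the filter. Cxcl13, which attracts B cells, was called at 800 mm3, at 0.319, 1.02, 1.72 and 0.922 CPM in Colon 26 against 0.454, 0.558, 0.573 and 0.343 CPM in CT-26, with overlap (1.03 ± 0.44, adjusted p = 0.0715), a call lost in 6 of the 8 fits that each left out 1 tumor (adjusted p = 0.105 to 0.228). At 400 mm3 it was called lower in Colon 26 only without replicate 2 of that model (-2.96, adjusted p = 0.0879).

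Among the receptors, Ccr2 was called higher in Colon 26 at 400 mm3, at 119, 69.5, 93.2 and 83.5 against 38.6, 38.4, 20.03 and 64.5 CPM, without overlap (1.18 ± 0.31, adjusted p = 0.0132). Without CT-26 replicate 3 it fell under the fold threshold (0.96). In that tumor the macrophage markers summed to 303 CPM, against 903 to 1228 CPM in the other CT-26 tumors of 400 mm3, and Ccr2, Cx3cr1 (4.41 CPM), Cxcl14 and Cxcl16 (17.3 CPM) had their lowest level of all 24 tumors. The part of macrophages in the Ccr2 difference was not tested. At 100 and 800 mm3 every Colon 26 tumor also exceeded every CT-26 tumor, with log2 fold changes of 0.73 ± 0.17 (SE, adjusted p = 0.00701) and 0.86 ± 0.15 (SE, adjusted p = 0.00105) under the threshold. Ackr3 was also apart at each size, with 90.3, 100.0, 99.2 and 94.2 in Colon 26 against 66.2, 49.4, 61.7 and 41.5 CPM at 100 mm3 and log2 fold changes under the threshold of 0.80 ± 0.13 (SE, adjusted p = 9.89e-04), 0.83 ± 0.16 (SE, adjusted p = 0.0032) and 0.88 ± 0.09 (SE, adjusted p = 2.37e-05). Tumors of 800 mm3 held 174, 148, 136 and 161 CPM in Colon 26 and 79.2, 82.5, 93.7 and 79.5 CPM in CT-26.

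Xcr1, the receptor of cross-presenting dendritic cells for Xcl1, was lower in Colon 26 at 400 mm3, at 1.25, 0.227, 0.462 and 0.650 against 2.52, 3.58, 0.384 and 3.98 CPM (-1.998 ± 0.69, adjusted p = 0.0419), and at 800 mm3, at 0.383, 0.866, 1.19 and 0.996 against 2.88, 2.15, 1.62 and 0.966 CPM (-1.15 ± 0.39, adjusted p = 0.0307). The models overlapped at both sizes. The call at 400 mm3 was lost without Colon 26 replicate 3 (adjusted p = 0.104) and with limma on log2(FPKM + 1) (-0.43). That at 800 mm3 was lost without replicate 1 of either model (-0.87 and -0.90). It was also lost in the fit on all 30 libraries (-1.14, adjusted p = 0.161) and with limma on log2(FPKM + 1) (-0.24) and log2(FPKM + 0.1) (-0.78). At 100 mm3 Xcr1 stood at 0.194, 1.87, 0.936 and 0.702 CPM in Colon 26 against 0.802, 7.29, 1.72 and 1.30 CPM, with overlap, and was not called (-1.58 ± 0.79, adjusted p = 0.131). It was called lower there by DESeq2 (-1.59, adjusted p = 0.0734), in the fit on all 30 libraries (-1.57, adjusted p = 0.0517), and without CT-26 replicate 1 (-1.87, adjusted p = 0.0852) or Colon 26 replicate 2 (-2.21, adjusted p = 0.0765). Cxcr6, the T and NK cell receptor of Cxcl16, was lower in Colon 26 at 400 mm3, at 1.65, 0.872, 2.68 and 1.48 against 4.06, 14.3, 1.96 and 11.8 CPM, with overlap (-2.26 ± 0.62, adjusted p = 0.0161). Cxcl16 itself was not called at any size and ranged from 17.3 to 141 CPM over all tumors, and Cxcr3 missed the fold threshold at 100 mm3 (-0.86 ± 0.23, adjusted p = 0.0132).

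Whether the difference between the models changed from culture to tumors of 100 mm3 was tested as an interaction, and 11 of 37 tested members were called, 3 higher and 8 lower, against 17.6% of all genes (8.29% higher, 9.31% lower). Among the lower were Cxcl10 (interaction -3.59 ± 0.72, adjusted p = 0.00111), Ccl5 (-3.40 ± 0.56, adjusted p = 2.35e-04) and Ccl2 (-4.08 ± 1.10, adjusted p = 0.0081), which were higher in Colon 26 cells. In tumors of 100 mm3 Cxcl10 and Ccl2 were lower in Colon 26, and Ccl5 was not called. At 100 mm3 Ccl5 stood at 6.75, 12.4, 12.4 and 7.39 CPM in Colon 26 and 15.3, 26.7, 9.20 and 10.9 CPM in CT-26. Ccl9, higher in Colon 26 cells, was not called in tumors, at 125, 77.1, 88.9 and 94.3 CPM in Colon 26 against 85.3, 53.7, 52.4 and 96.1 CPM (interaction -1.17 ± 0.40, adjusted p = 0.0287), a call lost without CT-26 tumor replicate 4 (-0.99). The Ccl9 call was also lost in the fit on all 30 libraries (-1.11, adjusted p = 0.169). So it was with limma on log2(FPKM + 1) (-0.28, adjusted p = 0.463) and on log2(FPKM + 0.1) (-0.94). For Cx3cl1 the gap narrowed (-3.51 ± 0.57, adjusted p = 2.00e-04) as CT-26 went from a trace to 0.928 to 3.16 CPM. With limma on log2(FPKM + 1) the Cx3cl1 call was lost (-0.21, adjusted p = 0.34).

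Among the higher were Ccr1 (interaction 2.27 ± 0.22, adjusted p = 2.25e-06) and Ccr7 (1.63 ± 0.43, adjusted p = 0.00718), which were higher in CT-26 cells. In tumors of 100 mm3 Ccr1 stood at 48.2, 69.7, 66.3 and 59.1 CPM in Colon 26 against 34.5, 52.0, 46.1 and 40.4 CPM in CT-26. Ccr7 stood at 3.20, 3.46, 4.49 and 4.50 in Colon 26 against 5.06, 3.04, 4.80 and 5.35 CPM, with overlap. The interactions of Ccr2, Ccl4, Ccl17 and Cxcl12 were also called, but CT-26 cultures were at the floor for each of them, and both lines for Cxcl12, so the fitted sizes depend on a few counts. Cxcl12 was lost without replicate 1 of the CT-26 (adjusted p = 0.394) or Colon 26 cultures (0.166), and Ccl17 without replicate 3 of the CT-26 (0.102) or replicate 1 of the Colon 26 cultures (0.113). Cxcr4 was added, higher, without replicate 3 of the CT-26 (2.82, adjusted p = 0.084) or replicate 1 of the Colon 26 cultures (3.88, adjusted p = 0.0764). Cxcl14, at the floor in both lines, was added, higher, by DESeq2 (4.95, adjusted p = 0.00287). It was also added by limma on log2(FPKM + 1) (1.80, adjusted p = 3.23e-05) and log2(FPKM + 0.1) (2.08, adjusted p = 2.26e-05). So it was without replicate 2 or 4 of the Colon 26 tumors or replicate 3 of the CT-26 cultures. Ccl6, Ccl7, Cxcl2, Cxcl5, Cxcl9, Cxcl11 and Ackr2 were each added in at least 1 fit. Tumor levels of Ccl4 at 100 mm3 were 2.49, 6.82, 7.86 and 4.66 CPM in Colon 26 and 9.66, 15.04, 3.59 and 5.97 CPM in CT-26, with overlap. Cxcl12 stood at 22.2, 22.7, 26.1 and 19.0 CPM in Colon 26 against 12.1, 19.7, 14.9 and 16.4 CPM, also with overlap.

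Growth was compared within each model against tumors of 100 mm3. No member was called in CT-26 at 400 mm3 (0 of 37, with 0% of all genes called) by edgeR, while 16 had an unadjusted p under 0.05 and DESeq2 called 10. The fit on all 30 libraries also called 10. In the fit of these tumors alone the outcome turned on single tumors: without replicate 4 at 400 mm3, 9 members were called. These were Cxcl1 (3.20), Cxcr2 (2.86), Cxcl3 (2.82), Cxcl5 (2.64) and Cxcl2 (2.09) upward and Xcl1 (-2.16), Ccr2 (-1.35), Ccl12 (-1.22) and Ccl7 (-1.05) downward, as log2 fold changes. Without replicate 2 at 100 mm3, 5 were called, Cxcl5 (3.02) and Cxcr2 (2.59) upward and Ccl12 (-1.15), Ccl9 (-1.11) and Ccr7 (-1.01) downward. The shares of all genes called in these other fits are not given here, so the counts only describe the members. Replicate 4 at 400 mm3 is the tumor with low ELR ligands and S100a9 given above. At 800 mm3 none of 37 was called (0% of all genes), 14 had an unadjusted p under 0.05, and DESeq2 called 2.

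In Colon 26 none of 34 members was called at 400 mm3 (0.0131% of all genes), with 7 at an unadjusted p under 0.05 and 1 by DESeq2. Replicate 1 at 400 mm3 stood apart, with Ccl6 at 169.7, 8.95, 34.5 and 52.0 and Ccl8 at 74.5, 5.95, 11.5 and 44.6 CPM, high in replicate 1, and its 4 skeletal muscle markers summed to 2179 CPM against 0.795 to 4.03 CPM in the other tumors of its group. Its 8 macrophage markers also stood apart, at 2097 CPM against 954 to 1212 CPM. Without it 9 members were called, each downward, with Ccl24 (-2.29), Ccl8 (-1.86), Cxcr2 (-1.75), Ccl6 (-1.71) and Cxcl5 (-1.68) changing most, then Ccl5 (-1.60), Ccl22 (-1.53), Ccr7 (-1.37) and Ccl9 (-1.30). The share of all genes called in that fit is not given here, so the count only describes the members. The part of the muscle RNA and of macrophages was not tested.

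At 800 mm3 Cxcl1 was called in Colon 26, 1 of 35 members against 1.33% of all genes (0.169% higher, 1.16% lower). It stood at 5.52, 3.76, 4.23 and 5.90 CPM against 0.711, 0.605, 1.498 and 0.537 CPM at 100 mm3, without overlap (log2 fold change 2.53 ± 0.31, adjusted p = 0.00738). A member was added to Colon 26 without replicate 2 at 100 mm3 (Ccl3, 1.03, adjusted p = 0.0994) or replicate 1 at 800 mm3 (Cxcl13, 2.18, adjusted p = 0.0845). Cxcl1 in CT-26 tumors stood at 49.5, 13.3, 17.6 and 10.3 CPM against 8.90, 5.13, 3.74 and 2.99 CPM, also without overlap (2.13 ± 0.53, adjusted p = 0.418), which missed the threshold. DESeq2 (2.12, adjusted p = 0.0632) and the fit on all 30 libraries (2.13, adjusted p = 0.0635) did call it higher in CT-26. The difference between the Cxcl1 changes of the models was not called (0.40 ± 0.68, adjusted p = 0.857). No member was called in that interaction (0 of 37, against 0.0308% of all genes, 0.0123% higher) by edgeR, with 5 at an unadjusted p under 0.05, and DESeq2 called 1, Cxcr2 (-3.03, adjusted p = 0.04), which edgeR also called without replicate 1 of the CT-26 tumors of 800 mm3 (-1.79, adjusted p = 0.0781).

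The remaining members were not called between the models in tumors. Ccl12 was apart at 100 mm3, at 20.6, 27.2, 30.7 and 33.6 CPM in Colon 26 against 54.4, 55.3, 44.9 and 56.7 CPM, and missed the fold threshold (-0.92 ± 0.15, adjusted p = 7.91e-04). Ccl19 reached at most 0.0825 CPM in any tumor, and since the mouse genome holds near-identical copies of this gene, its level is uncertain. The receptors Ccr3, Ccr4, Ccr6, Ccr8, Cxcr5 and Ackr2, with Ccl19, made up the 7 members under 1 CPM in every tumor, and of these Ackr2 alone was tested in some comparisons. Ccl6 and Ccl8 reached 178 and 179 CPM and were not called between the models at any size, and neither were Cxcl9, Cxcl16, Ccl11, Ccl12, Ccl24, Xcl1, Cxcr4 and Cx3cr1. Single tumors left out added Ccl12 at 100 mm3 without Colon 26 replicate 4 (-1.02), Cxcl12 at 400 mm3 without CT-26 replicate 3 (-1.02), Ccl6 at 800 mm3 without CT-26 replicate 1 (1.05, adjusted p = 0.0185) and Ccl17 at 800 mm3 without Colon 26 replicate 2 (-1.01).

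Other chemokine genes outside the 43 gave few calls. Of 16 such genes 4 were tested in culture, with Ccr10 higher (1.56) and Ccl28 (-1.31) and Ppbp (-3.40) lower in Colon 26. Ccr10, the receptor of skin-homing T cells, was also higher in Colon 26 tumors of each size (1.27, 1.74 and 2.10). Of 19 genes of receptor signaling, 10 were tested in culture, with Prex1 (5.54) and Ptk2b (4.07) higher and Elmo1 (-4.37) lower in Colon 26 cells. Ptk2b alone, a kinase downstream of chemokine receptors, was called in tumors, higher in Colon 26 at each size (1.40, 1.51 and 1.60).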

How the data were processed

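RNA-seq was performed by the study on cultured cells and tumors, with paired-end poly-A mRNA libraries. With Array Studio and an Ensembl annotation, the authors counted reads and deposited the estimated counts per gene and library, not normalized, and the FPKM values, which divide the count by gene length and by library total. DESeq2 1.24.0 is named in the submitters' processing notes. The aligner, genome build and handling of strand are not given in the sources used here. The number of per-library columns not used was 0. Since 22.6% of the values above 0 had decimals, all were rounded, although the design spoke of raw counts.

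Each comparison was fitted on its own libraries with the quasi-likelihood test of edgeR 4.0.16 (limma 3.58.1, R 4.3.3) after TMM normalization. Genes with low counts were removed by filterByExpr, and p-values were adjusted over all remaining genes by the Benjamini-Hochberg method. The thresholds (adjusted p of at most 0.1, absolute log2 fold change of at least 1) are those of the study. Where every library of a group held at most 3 counts, the group was said to be at the floor, and the fold given is the least one that 3 counts per library allow. Floors and depth cover counting error only. Alternatives were DESeq2 1.42.0, RLE normalization, library size only, no filter, a mean count of at least 10, all 30 libraries in one fit, an adjusted p of 0.05, limma on log2(FPKM + 1) and log2(FPKM + 0.1), levels of 0.5 and 2 CPM for the classes, and leaving out each library. The fits were tested on simulated counts. Symbols came from a table matching 52207 of 53431 identifiers (97.7%), positions from GENCODE on GRCm38 and promoters from RefSeq.

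All 43 members are accounted for by class. Values of each library are given for members made by cultured cells, called between the models in tumors or called in an interaction, where a group mean reached 1 CPM. The members and lists were chosen with earlier results of these data known. From the list of inducers of chemokine genes, 1 gene is not reported here. Tables used Python with pandas and matplotlib.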

Additional observations from a re-analysis of the deposited data

Results flagged for a closer look

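A test for 1 library far from the others of its group was run on 137 pairs of a named member and a tumor group and marked 13, where chance marks about 1 in 20 groups. Replicate 1 of the CT-26 tumors of 800 mm3 held 9.35 CPM of Cxcl2 (the others 1.25 to 2.43), 8.14 CPM of Cxcl3 (0.873 to 1.15), 12.04 CPM of Cxcl5 (1.65 to 2.26), 3.25 CPM of Cxcr2 (0.371 to 0.686) and 33.6 CPM of Cxcl14 (27.4 to 27.6). Replicate 1 of the CT-26 tumors of 100 mm3 held 3.88 CPM of Cxcl2 (1.08 to 1.52) and 2.03 CPM of Cxcl3 (0.392 to 0.507). Replicate 2 of that group held 7.29 CPM of Xcr1 (0.802 to 1.72). Replicate 2 of the CT-26 tumors of 400 mm3 held 32.0 CPM of Ccl5 (5.53 to 9.32), and replicate 3 at 800 mm3 held 3.94 CPM of Ccr7 (2.12 to 2.43). In Colon 26, replicate 1 at 400 mm3 held 3.23 CPM of Ccl3 (1.66 to 1.85), replicate 2 at 400 mm3 held 1.44 CPM of Cxcl13 (0.123 to 0.217) and replicate 2 at 800 mm3 held 110.3 CPM of Ccl9 (62.4 to 65.7).

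The difference between tumors of 100 mm3 and culture was itself different in the models for 11 members by the interaction term. As log2 values, Colon 26 minus CT-26, these were -3.59 for Cxcl10, 2.28 for Cxcl12, -4.08 for Ccl2, -3.26 for Ccl4, -3.40 for Ccl5, -1.17 for Ccl9, -3.24 for Ccl17, -3.51 for Cx3cl1, 2.27 for Ccr1, -4.41 for Ccr2 and 1.63 for Ccr7.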

How the results depend on the processing

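Of the counts of members called, made or seen only in tumors, 205 stayed within 1.5 times the reported count under another setting and 22 did not. With limma on log2(FPKM + 1) the counts were 6 in culture, 7 at 100 mm3, 3 at 800 mm3, 7 for the interaction with culture and 1 for CT-26 at 400 mm3, and with limma on log2(FPKM + 0.1) they were 3 at 800 mm3 and 1 for CT-26 at 400 mm3. DESeq2 called 10 members in CT-26 at 400 mm3, 2 at 800 mm3, 1 in Colon 26 at 400 mm3, 2 at 800 mm3 and 1 in the interaction with size. All 30 libraries in one fit gave 10 and 3 for CT-26. The shares of all genes called under these other settings are not given here. Leaving out 1 library gave 10 to 11 members in culture, 8 to 11, 10 to 15 and 4 to 6 between the models at 100, 400 and 800 mm3, 31 to 34 and 29 to 34 for tumors against culture in CT-26 and Colon 26, 0 to 9 and 0 to 0 for CT-26 at 400 and 800 mm3, 0 to 9 and 1 to 2 for Colon 26, 10 to 12 for the interaction with culture and 0 to 1 for that with size. Without the Colon 26 tumors richest in muscle markers, chosen after seeing the data, Colon 26 gave 8 at 400 mm3 and 2 at 800 mm3. The Ccr2 interaction reversed with limma on log2(FPKM + 1), to 0.23 (adjusted p = 0.415), and was -4.41 with edgeR, where CT-26 cultures were at the floor. The cause of the other changes was not tested. For the 118 pairs of a called member and a comparison, outside leave-one-out, 1002 values kept direction and call, 58 lost the call and 1 reversed. Another 44 values gained a call in pairs not called before. Of the 118 pairs, 33 in CT-26 and 32 in Colon 26 compare tumors of 100 mm3 with culture. There 19 and 16 of the tested members were at the floor in culture, and such calls are hard to lose. No paired analysis was possible because replicate numbers only name libraries of separate tumors or cultures, and no label ties the same number across groups.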

Other observations

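Among the chemokine genes outside the 43, Ccl25, a ligand of gut-homing cells, was present in both lines, at 4.61, 5.23 and 5.30 CPM in CT-26 and 4.06, 3.90 and 3.86 CPM in Colon 26 cultures. In Colon 26 it was lower in tumors of 100 mm3 than in culture (log2 fold change -1.43 ± 0.18, adjusted p = 7.30e-05). In culture, Nfkbia, an inhibitor of NF-kappa-B that is itself induced by it, was higher in Colon 26 cells (log2 fold change 1.37 ± 0.05, adjusted p = 5.53e-13) and was the only one called of 4 tested inducers or regulators of chemokine genes.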
